A study of Mus musculus with 12 samples.

Results

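The integrated stress response and the unfolded protein response were followed through 10 named genes, *Atf4*, *Ddit3*, *Trib3*, *Asns*, *Chac1*, *Xbp1*, *Atf6*, *Ern1*, *Eif2ak3* and *Ppp1r15a*, which were taken by symbol from the count and TPM matrices of a mouse acute myocardial infarction (AMI) study. The matrices held 53801 genes, and each of the 10 symbols matched 1 gene. Of all genes, 15306 passed the filter on low counts, and all 10 of these genes were among them. The study sequenced whole hearts of adult male C57BL/6N mice, aged 10 to 14 weeks, that had sham surgery or were 1 day or 7 days past AMI, with 4 hearts and 1 library per heart in each of 3 groups. AMI was made by permanent ligation of the left anterior descending coronary artery. None of these groups carried a transgene or received a drug, and the collection day of sham hearts is not given. The labels do not say that the 4 libraries of a group came from separate mice, so the p-values measure the spread between these libraries.

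Both pathways adjust protein synthesis to stress. In the integrated stress response, kinases such as PERK, the product of *Eif2ak3*, phosphorylate the translation factor eIF2α, which lowers general translation and raises translation of the transcription factor ATF4. ATF4 and its target CHOP, the product of *Ddit3*, then act on genes of amino acid supply, redox balance and cell death, and GADD34, the product of *Ppp1r15a*, brings eIF2α back to its unphosphorylated form. In the unfolded protein response, PERK, IRE1α and ATF6 sense misfolded protein in the endoplasmic reticulum (ER), and IRE1α, the product of *Ern1*, splices *Xbp1* mRNA so that it encodes an active factor for chaperone and ER degradation genes. Muscle cells of the heart, fibroblasts and plasma cells all use these pathways, and secretory cells use them heavily.

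In the day 1 AMI hearts 6 of the 10 genes rose against sham and none fell by the edgeR quasi-likelihood test. Of all tested genes, 22% rose and 19.9% fell. The 6 were *Asns*, *Xbp1*, *Atf4*, *Ppp1r15a*, *Ddit3* and *Eif2ak3*, with log2 fold changes (FC) from 0.36 to 2.07. By day 7 AMI only *Asns* and *Eif2ak3* were above sham and *Chac1* was below it, against 30.9% and 28.4% of all tested genes. Scaled by library totals alone, 6 of the 10 genes were above and 0 below. That scaling put 8237 of all 15306 tested genes above sham and 1659 below. The sensors *Ern1* and *Atf6* did not pass the test at either time with TMM scaling, but *Ern1* was called higher at both times with library totals alone and in limma on TPM, and *Atf6* in limma on TPM.

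Stretches of 30 bases around the promoter motifs that were found are shown because *Asns* and *Chac1* carried the same ATF4 motif and had opposite signs after AMI. The 250 bases before the RefSeq start of each gene (GRCm38.p6) were searched on both strands. The sequences are from RefSeq, read 5′ to 3′ on the strand of the gene, with the motif in capitals.
Asns, chr6:7693214-7693243, minus strand: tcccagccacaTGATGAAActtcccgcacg
Chac1, chr2:119351038-119351067, plus strand: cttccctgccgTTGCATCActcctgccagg
Ppp1r15a, chr7:45526269-45526298, minus strand: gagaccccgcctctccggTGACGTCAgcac
The first motif is the C/EBP-ATF response element, searched as TGATGNAA, which ATF4 binds with C/EBP partners. It lay 23 to 16 bases before the RefSeq start of *Asns*, inside the first exon of the GENCODE model of the gene. In *Chac1* it lay 193 to 186 bases before the start, on the opposite strand to the gene. The motif was in 2 of the 9 promoters that the table held for these genes and in 3.45% of all 32851 promoters. The capitals in *Ppp1r15a* are a cAMP response element, TGACGTCA, found in 1 of the 9 promoters and in 1.55% of all. The ER stress elements were searched as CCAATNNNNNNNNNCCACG, ATTGGNCCACG and TGACGTGG. None of the 9 promoters, *Xbp1* included, held any of these, against 0.113%, 0.0304% and 0.563% of all promoters, and a match or its absence in this window is a description of letters only. *Atf6* had no entry.

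The libraries held 23204551 to 32166517 counts. Mitochondrial genes took 17.9% to 27.4% of the counts in sham, 12.1% to 15.9% in day 1 AMI and 13.2% to 19.2% in day 7 AMI. Levels below are counts relative to library size (CPM), with TMM factors that were 0.781 to 0.917 in sham and 1.1 to 1.17 on day 7. The floor for counting error, set at 3 counts, was worth 0.0895 to 0.156 CPM. Markers matched the labelled tissue, and the sum of 11 cardiomyocyte markers was 78173 to 94127 CPM in the sham hearts, 51818 to 63704 on day 1 and 44814 to 51794 on day 7. Sham replicate 2 stood apart in erythroid markers, at 4467 CPM against 491 to 1182 in the other sham hearts, so calls and signs that changed without it are given beside the gene. Calls were made at a false discovery rate (FDR, Benjamini-Hochberg) below 0.05, and a differentially expressed gene (DEG) also had a FC of 2 or greater. Both AMI groups were set against the same sham hearts. In bulk RNA, fewer cells of a type and less RNA per cell cannot be told apart.

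Against this background 22% of all tested genes rose and 19.9% fell in day 1 AMI, and 7.79% rose and 2.98% fell as DEGs. Of the 10 genes, 6 rose and 2 of them, *Asns* and *Xbp1*, were DEGs. The absence of falls was the same by DESeq2 and at an unadjusted p below 0.05, with a count of 0 by each. In day 7 AMI 30.9% of tested genes rose and 28.4% fell, with 15.3% and 5.88% as DEGs, while of the 10 genes 2 rose, 1 of them as a DEG, and 1 fell. Between day 7 and day 1 AMI 24.2% of tested genes were higher on day 7 and 22.8% lower, with 8.55% and 2.69% as DEGs. Of the 10 genes, *Eif2ak3* was higher on day 7, *Atf4*, *Xbp1* and *Ppp1r15a* were lower, and 0 were DEGs by edgeR, by DESeq2 or at an unadjusted p. The median log2 FC of the 10 genes was 0.53 in day 1 AMI, 0.17 in day 7 AMI and -0.41 for day 7 against day 1, while the medians of all tested genes were -0.01, 0.03 and 0.02. Scaling by library totals alone moved those all-gene medians to 0.26, 0.43 and 0.15 and changed the split of calls from 3360 higher and 3043 lower to 6289 and 1061 in day 1 AMI. For day 7 AMI the split went from 4728 and 4353 to 8237 and 1659, and between the AMI groups from 3701 and 3496 to 4772 and 2168. Limma on log2(TPM + 1) and log2(TPM + 0.1), where TPM carry no composition factor, moved the medians further, to 0.28 and 0.32 in day 1 AMI and to 0.48 and 0.55 in day 7 AMI. Changes below are therefore relative to the bulk of genes, and calls that differ under these 3 scalings are given beside them.

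**Figure D1:**
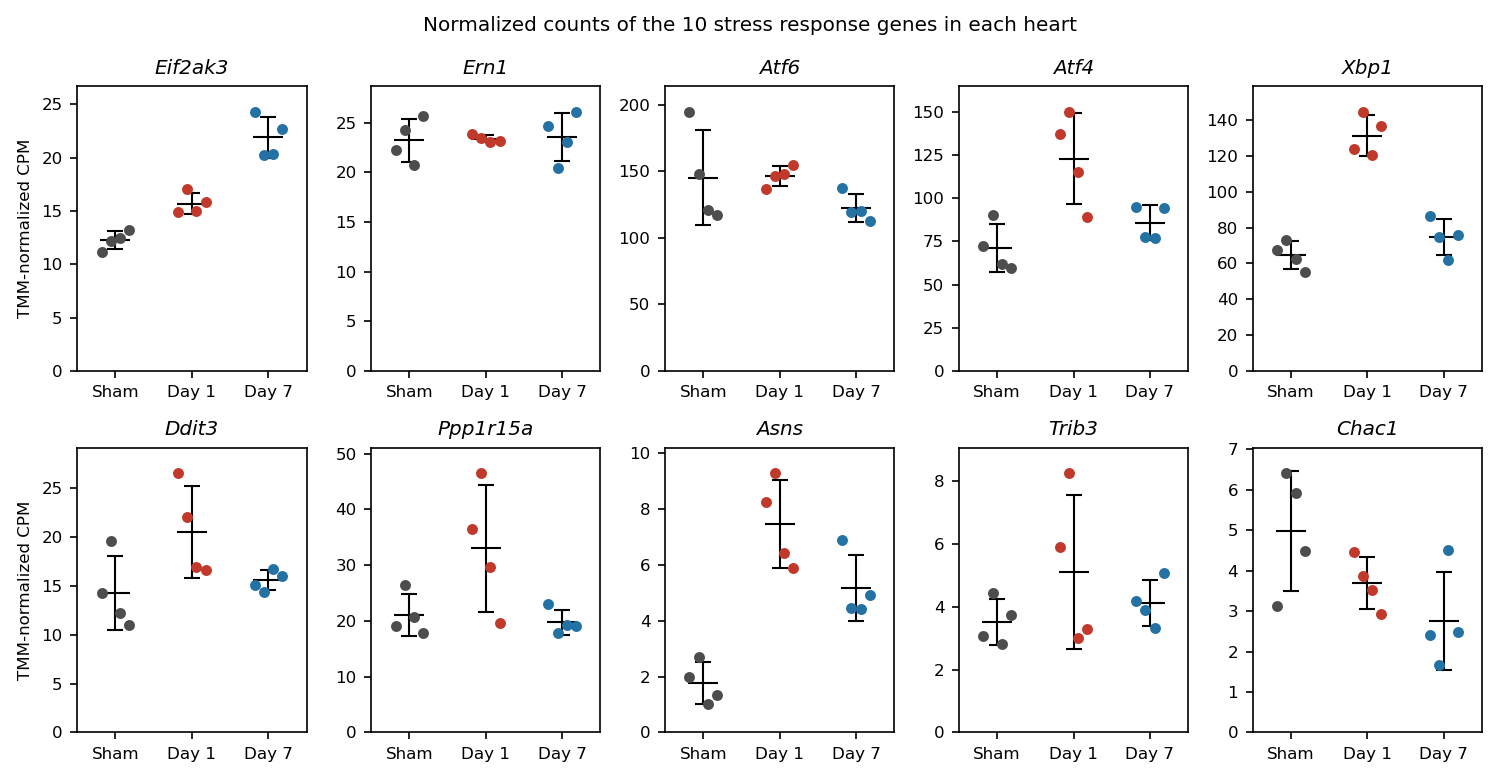
TMM-normalized CPM of each gene (vertical axes, from 0) in the 4 hearts of each group, with 1 point per heart, the mean as a dash and the SD as bars. *Xbp1* in day 1 AMI (120 to 145 CPM) and *Eif2ak3* in both AMI groups stood above all sham hearts, while *Ern1* stayed between 20.5 and 26.1 CPM throughout.

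Among the ER sensors, *Eif2ak3* (ENSMUSG00000031668, GRCm38 chromosome 6, 70844515 to 70905245, plus strand) encodes PERK, the kinase that links ER stress to eIF2α. Its levels were 11.2, 12.2, 12.4 and 13.2 CPM in the sham hearts, 14.9, 17, 15 and 15.8 CPM in day 1 AMI and 24.3, 20.3, 20.3 and 22.7 CPM in day 7 AMI. The 3 groups did not overlap, and the order was sham, day 1 and day 7. The log2 FC was 0.36 ± 0.0919 (SE) in day 1 AMI (adjusted p = 0.0068) and 0.84 ± 0.0917 in day 7 AMI (adjusted p = 3.4e-06). Day 7 exceeded day 1 by 0.48 on the log2 scale (adjusted p = 0.000605). *Eif2ak3* was the only one of the 10 genes called higher on day 7 than on day 1, and it kept its 3 calls without any single heart and under each other setting tried. Exons of an opposite-strand gene model, Gm43292, cover 8.05% of its exon bases, and reads there could not be separated without strand.

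Fibroblast markers moved with *Eif2ak3*. Their sum over 10 genes was 1097 to 1337 CPM in the sham hearts, 1750 to 2375 in day 1 AMI and 8269 to 16603 in day 7 AMI. Of the 10 markers, 7 rose and 1 fell on day 1, against 22% and 19.9% of all genes. All 10 rose on day 7, when 30.9% of all genes rose and 28.4% fell. Over the 12 libraries the genes closest to *Eif2ak3* in log2 CPM were *Fzd2* (Pearson r = 0.991) and *Gpr153* (r = 0.990), and these libraries share their group differences. Macrophage markers also rose in this order without overlap, at 324 to 516, 613 to 876 and 928 to 1429 CPM. So did the sum of 9 B and plasma cell markers, at 15.7 to 25.0, 25.8 to 46.1 and 51.7 to 83.4 CPM, though 3 of the 9 were called risen on day 1. Between day 7 and day 1, 2 of these 9 were higher and 1 lower, against 24.2% and 22.8% of all genes. Of 12 macrophage markers 6 were higher and 0 lower. The sums of pan-leukocyte, neutrophil, endothelial, cardiomyocyte and erythroid markers did not rise in this order without overlap. The part of fibroblasts and of these other cells in the *Eif2ak3* values was not tested.

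*Ern1* (ENSMUSG00000020715, chromosome 11, 106394650 to 106487852, minus strand) encodes IRE1α, the kinase and RNase that splices *Xbp1*. It was 22.2, 24.3, 20.8 and 25.7 CPM in sham, 23.8, 23.5, 23.1 and 23.2 in day 1 AMI and 24.6, 20.5, 23.1 and 26.1 in day 7 AMI. The 3 groups overlapped, with group means of 23.2, 23.4 and 23.6 CPM. The log2 FCs were 0.01 (adjusted p = 0.947) and 0.02 (adjusted p = 0.857). *Ern1* was called higher at both times without composition factors, at 0.28 and 0.42 with library totals alone, and in limma on TPM at 0.42 and 0.50 on day 1 and 0.61 and 0.71 on day 7. The all-gene medians on days 1 and 7 were 0.26 and 0.43 with library totals alone, and 0.28 to 0.32 and 0.48 to 0.55 in limma.

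*Atf6* (ENSMUSG00000026663, chromosome 1, 170704674 to 170867771, minus strand) encodes the sensor that is cut in the Golgi to release a transcription factor. It was at 195, 148, 121 and 117 CPM in sham, 136, 146, 148 and 154 CPM in day 1 AMI and 138, 120, 120 and 113 CPM in day 7 AMI. Sham replicate 1 lay above all the other hearts. The log2 FCs were 0.01 in day 1 AMI (adjusted p = 0.961) and -0.25 in day 7 AMI (adjusted p = 0.128), which became 0.16 with library totals alone. In limma on TPM *Atf6* was called higher at both times, at 0.35 and 0.36 on day 1 and 0.33 and 0.34 on day 7. Without sham replicate 4 the day 7 value of -0.34 was called lower.

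Among the transcription factors, *Xbp1* (ENSMUSG00000020484, chromosome 11, 5520659 to 5525893, plus strand) encodes the factor made active by IRE1α splicing, and it was a DEG on day 1. It was 67.2, 73.3, 62.7 and 55.4 CPM in sham, 124, 145, 120 and 137 in day 1 AMI and 86.5, 74.6, 62.1 and 75.9 in day 7 AMI. All day 1 hearts stood above all others, and day 7 overlapped sham. The log2 FC was 1.02 ± 0.110 in day 1 AMI (adjusted p = 2.55e-05) and 0.21 ± 0.109 in day 7 AMI (adjusted p = 0.114), and day 7 fell by 0.81 from day 1 (adjusted p = 4.82e-05). The rise and the later fall held under every other setting and without any single heart, but the FC of 2 did not, since the log2 FC was 0.95 to 1.09 with a heart left out. The day 7 value passed the test at 0.61 with library totals alone, at 0.76 and 0.78 in limma on TPM, and at 0.29 without day 7 replicate 3. Gene counts do not tell spliced from unspliced *Xbp1*.

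The genes nearest to *Xbp1* over the 12 libraries were *Pf4* (r = 0.978), which encodes a platelet chemokine, and *Ppp1r14b* (r = 0.976). Leukocyte markers rose with *Xbp1* on day 1 but did not return with it. Their sum was 76.4 to 130 CPM in the sham hearts, 276 to 400 in day 1 AMI and 290 to 468 in day 7 AMI, with 8 of 8 markers risen at both times. Neutrophil markers were 4.40 to 66.7, 72.4 to 229 and 14.4 to 56.9 CPM, with 6 of 10 risen on day 1, and 2 risen and 1 fallen on day 7. Of all tested genes, 22% rose and 19.9% fell on day 1, and 30.9% rose and 28.4% fell on day 7. Macrophage markers were 324 to 516, 613 to 876 and 928 to 1429 CPM, with 10 and then 12 of 12 risen. B and plasma cell markers, which share *Derl3* with the ER list below, were 15.7 to 25.0, 25.8 to 46.1 and 51.7 to 83.4 CPM, with 3 of 9 risen on day 1 and 4 of 9 on day 7. The part of these cells in the *Xbp1* values was not tested.

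*Atf4* (ENSMUSG00000042406, chromosome 15, 80255184 to 80257541, plus strand) encodes the central factor of the integrated stress response, which is controlled mainly at translation. Its mRNA was at 72.6, 90.2, 62.1 and 59.3 CPM in sham, 137, 150, 115 and 89.4 in day 1 AMI and 95.1, 77.3, 77.1 and 94.1 in day 7 AMI. Day 1 replicate 4 lay just below the highest sham heart, replicate 2, and the other day 1 hearts lay above all sham hearts. *Atf4* had a log2 FC of 0.79 ± 0.160 in day 1 AMI (adjusted p = 0.00153) and 0.27 ± 0.160 in day 7 AMI (adjusted p = 0.156). The day 7 value passed the test at 0.41 without sham replicate 2, at 0.67 with library totals alone and at 0.82 and 0.83 in limma on TPM. Day 7 fell by 0.52 from day 1 (adjusted p = 0.0158), a call that was lost without day 1 replicate 2, when the adjusted p was 0.051, and with library totals alone or in limma on TPM.

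*Ddit3* (ENSMUSG00000025408, chromosome 10, 127290774 to 127296288, plus strand) encodes CHOP, the factor tied to cell death in long ER stress. It was 14.2, 19.6, 12.2 and 11.0 CPM in sham, 26.5, 22.1, 16.9 and 16.7 in day 1 AMI and 15.1, 14.4, 16.8 and 16.0 in day 7 AMI. Day 1 replicates 1 and 2 were above every sham heart, and the other day 1 hearts lay within the sham range. The log2 FC of 0.52 ± 0.177 in day 1 AMI (adjusted p = 0.0296) was lost on leaving out any of 5 single hearts (sham replicates 1, 3 and 4 and day 1 replicates 1 and 2), with an adjusted p of up to 0.108, and when only the sham and day 1 hearts were fitted, at 0.0552. In day 7 AMI the log2 FC was 0.12 (adjusted p = 0.576), and it was called at 0.51 with library totals alone and at 0.70 and 0.72 in limma on TPM. Day 7 against day 1, at -0.40 (adjusted p = 0.0753), passed without sham replicate 2, at -0.40, without day 1 replicate 4, and when only the AMI hearts were fitted. In GENCODE a second gene model of the same name covers 6.13% of its exon bases and the opposite-strand *Mars* 3.97%. The share of its counts that came from these bases is not known.

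Downstream of these factors, *Asns* (ENSMUSG00000029752, chromosome 6, 7675169 to 7693254, minus strand) encodes asparagine synthetase, an ATF4 target. It had the largest rise of the 10 genes at both times. It was 1.98, 2.71, 1.02 and 1.34 CPM in sham, 8.26, 9.28, 6.41 and 5.90 in day 1 AMI and 6.90, 4.44, 4.43 and 4.93 in day 7 AMI. Every AMI heart was above every sham heart. The counts behind these values were 21 to 66 in sham and 115 to 311 in the AMI hearts. *Asns* had a log2 FC of 2.07 ± 0.268 in day 1 AMI (adjusted p = 7.75e-05) and 1.54 ± 0.270 in day 7 AMI (adjusted p = 0.000204), and the difference of -0.52 between the times did not pass (adjusted p = 0.0898). Its nearest genes over the 12 libraries were *Kcnab2* (r = 0.987) and *Galnt6* (r = 0.984).

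*Chac1* (ENSMUSG00000027313, chromosome 2, 119351229 to 119354381, plus strand) encodes an enzyme that breaks down glutathione and is also an ATF4 target. It was 3.13, 6.41, 5.92 and 4.49 CPM in sham, 4.47, 3.88, 3.53 and 2.93 in day 1 AMI and 2.4, 1.66, 4.50 and 2.48 in day 7 AMI. The mean was highest in sham, unlike that of *Asns*, and the groups overlapped. *Chac1* had a log2 FC of -0.44 ± 0.278 in day 1 AMI (adjusted p = 0.227) and -0.86 ± 0.284 in day 7 AMI (adjusted p = 0.0177). The day 7 call was lost without sham replicate 2 or without day 7 replicate 2, with an adjusted p of up to 0.0569, and with scaling by library totals or in limma on TPM. Of the 10 genes it was the only one below 0 in both AMI groups in this fit, and it was negatively correlated with *Eif2ak3* over the 12 libraries (r = -0.64).

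*Trib3* (ENSMUSG00000032715, chromosome 2, 152337422 to 152344032, minus strand) encodes a pseudokinase that is induced by ATF4 and CHOP. It was 3.08, 4.44, 2.81 and 3.73 CPM in sham, 5.89, 8.24, 3.01 and 3.28 in day 1 AMI and 4.19, 3.90, 3.32 and 5.07 in day 7 AMI. Day 1 replicates 1 and 2 and day 7 replicate 4 were above every sham heart. The log2 FCs of 0.53 ± 0.288 (adjusted p = 0.153) and 0.23 (adjusted p = 0.523) did not pass. The day 1 value was called at 0.80 with library totals alone, and the day 7 value at 0.67 and 0.88 in limma on TPM.

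*Ppp1r15a* (ENSMUSG00000040435, chromosome 7, 45522916 to 45526268, minus strand) encodes GADD34, the regulator that removes phosphate from eIF2α. It was 19.1, 26.4, 20.8 and 17.8 CPM in sham, 36.4, 46.5, 29.6 and 19.5 in day 1 AMI and 23, 17.8, 19.3 and 19.0 in day 7 AMI. Day 1 replicate 4 was within the sham range, and the other day 1 hearts were above it. The log2 FC was 0.65 ± 0.206 in day 1 AMI (adjusted p = 0.0213) and -0.09 in day 7 AMI (adjusted p = 0.733), or 0.30 with library totals alone, 0.37 and 0.39 in limma on TPM and 0.0389 without sham replicate 2, none of them called, and day 7 fell by 0.74 from day 1 (adjusted p = 0.00909). The day 1 rise was lost on leaving out any of 4 single hearts (sham replicates 1 and 4 and day 1 replicates 1 and 2), with an adjusted p of up to 0.0848. The later fall was lost in limma on TPM.

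Within day 1 AMI the hearts of replicates 1 and 2 had the highest levels of *Atf4*, *Ddit3*, *Ppp1r15a*, *Asns*, *Trib3*, *Chac1* and *Ern1*, and this was not so for *Xbp1*, *Atf6* or *Eif2ak3*. How many of all tested genes had this split was not counted. Several of the genes are correlated with one another, as given below, and so are not separate observations. The day 1 values of *Ern1* spanned only 23.1 to 23.8 CPM, and those of *Chac1* rested on 93 to 130 counts. Neutrophil markers summed to 128 and 229 CPM in replicates 1 and 2 and to 72.4 and 105 CPM in replicates 3 and 4. Macrophage markers did not follow this split, at 667 and 876 CPM, then 613 and 773 CPM. The part of either cell type in the values of these genes was not tested. Over all 12 libraries *Atf4* was closest among the 10 genes to *Ddit3* (r = 0.887), followed by *Ppp1r15a* (r = 0.878), *Asns* (r = 0.869) and *Xbp1* (r = 0.861). These correlations share the group differences and the scaling of the libraries. Among all tested genes *Fpgs* was nearest to both *Atf4* (r = 0.979) and *Ppp1r15a* (r = 0.940), followed by *Ppan* (r = 0.967) for *Atf4* and *Slc2a1* (r = 0.935) for *Ppp1r15a*. The nearest genes were *Nr4a3* (r = 0.918) and *Rara* (r = 0.899) for *Ddit3*, *Itpk1* (r = 0.906) and *Gipr* (r = 0.854) for *Trib3*, and *Kcna2* (r = 0.925) and *Pcbd2* (r = 0.886) for *Chac1*. For the sensors they were *Ncoa4* (r = 0.910) and *Selenoi* (r = 0.883) for *Atf6*, and *Kmt2b* (r = 0.822) and *Xntrpc* (r = 0.752) for *Ern1*.

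**Figure D2:**
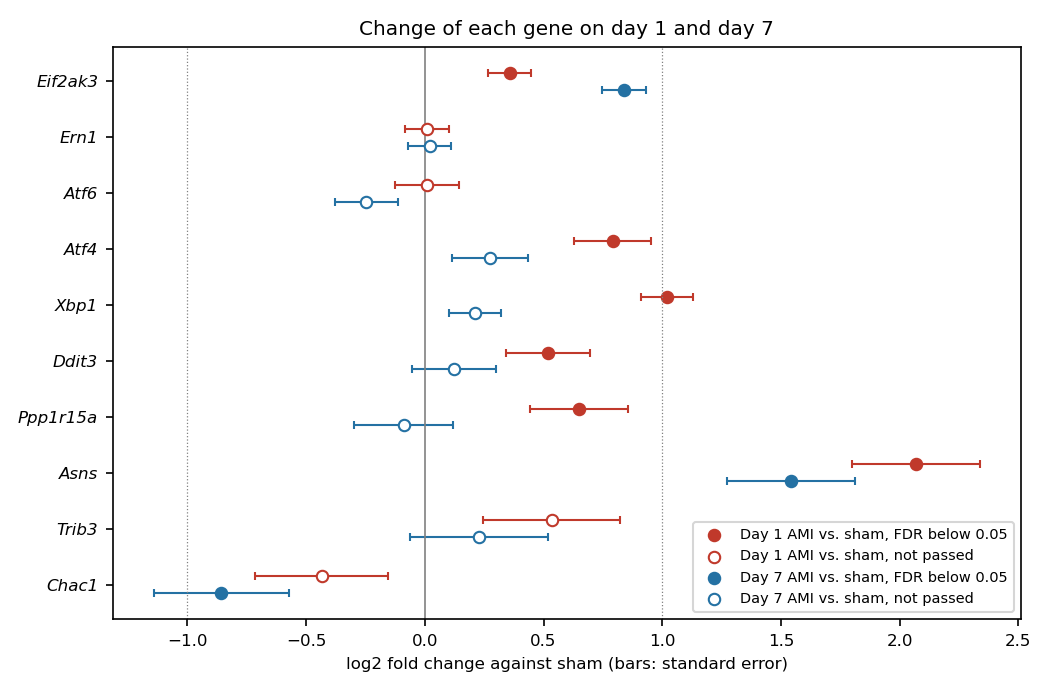
Log2 FC against sham (horizontal axis, bars are SE) of each gene in day 1 AMI (red) and day 7 AMI (blue), with filled points where the FDR was below 0.05 and dotted lines at a FC of 2. *Asns* lies farthest to the right at 2.07 and 1.54, *Eif2ak3* is the gene with a larger called value on day 7, and *Chac1* lies to the left at -0.44 and -0.86.

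TPM, which take transcript length into account, allow the genes to be ordered. In sham hearts *Atf4* was the most abundant of the 10, at 52.8 ± 13.2 TPM (SD, n = 4), followed by *Xbp1* at 40.8 ± 7.05, *Ddit3* at 26.1 ± 8.06, *Atf6* at 22.3 ± 4.59 and *Ppp1r15a* at 12.6 ± 5.58. Each of these overlapped its neighbour in the order. *Ppp1r15a* stood apart from the 5 genes below it, and *Ern1* at 4.07 ± 0.314, *Chac1* at 4.01 ± 1.42, *Eif2ak3* at 3.15 ± 0.365, *Trib3* at 2.18 ± 0.549 and *Asns* at 1.27 ± 0.771 TPM each overlapped the next. *Atf4* at 113 ± 23.2 and *Xbp1* at 102 ± 11.4 TPM led in day 1 AMI and overlapped one another, and both stood apart from *Ddit3* at 47.2 ± 9.79 TPM. *Asns* went from the tenth place in sham to the sixth in day 1 AMI, at 5.81 ± 1.19 TPM, where it overlapped *Ern1* at 5.79 ± 0.304. *Eif2ak3* went from the eighth place in sham to the sixth in day 7 AMI, at 9.25 ± 0.254 TPM, apart from both its neighbours. *Chac1* was the least abundant in both AMI groups, at 3.66 ± 0.572 and 3.19 ± 1.32 TPM, and overlapped *Trib3* at 3.92 ± 1.88 and 4.07 ± 0.843.

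**Figure D3:**
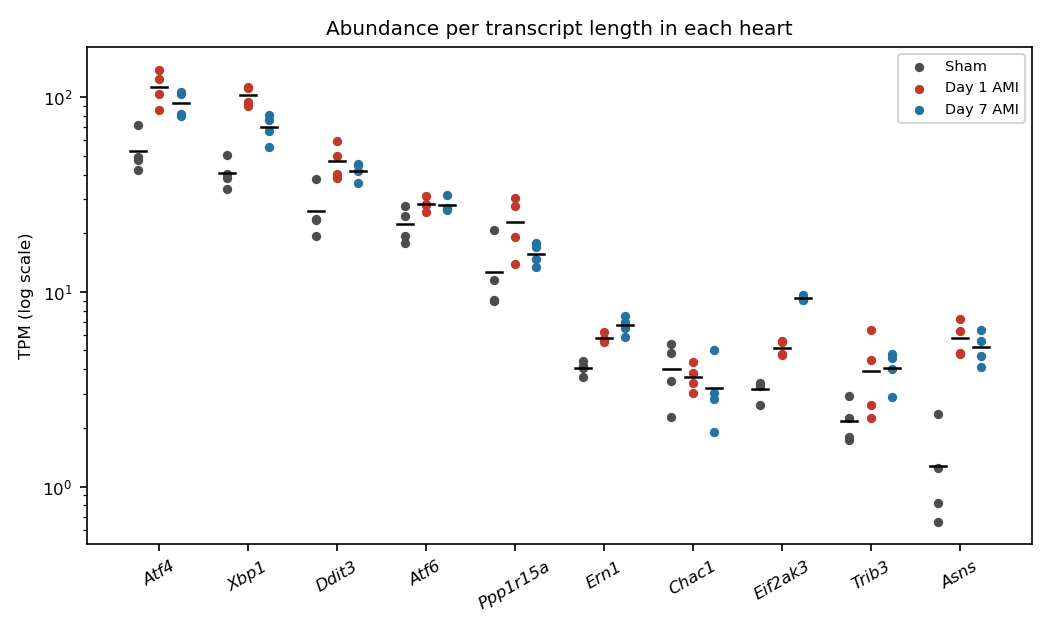
TPM of each gene in every heart (vertical axis, log scale), with genes ordered by their sham mean, 1 point per heart and the group mean as a dash. *Atf4* and *Xbp1* lead in each group, and *Asns* and *Eif2ak3* move up the order after AMI.

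Other genes of the pathways were counted in lists drawn up from general knowledge, with earlier results of these data known. The shares of all genes beside them are given for scale and not as a test. Of all 15306 tested genes, library totals alone called 6289 higher and 1061 lower on day 1, and 8237 and 1659 on day 7. Limma on log2(TPM + 1) called 6015 and 707 of 13716 genes on day 1, and 8606 and 993 on day 7. Between day 7 and day 1 it called 4879 higher and 1273 lower. Of 25 ER chaperones and folding enzymes, 20 rose and 1 fell in day 1 AMI, with a median log2 FC of 0.79, against 22% and 19.9% of all genes. *Hspa5*, which encodes the chief ER chaperone BiP, had a mean of 531 CPM in sham, 1015 CPM on day 1 and 417 CPM on day 7. The log2 FC was 0.94 on day 1 (adjusted p = 0.00105) and -0.35 on day 7 (adjusted p = 0.107). The largest rises on day 1 were in *Sdf2l1*, a cofactor of BiP, at 2.43 ± 0.285 (adjusted p = 4.33e-05), and *Manf*, a secreted ER stress protein, at 1.94 ± 0.260 (adjusted p = 9.48e-05). *Cdnf*, a relative of *Manf*, was the chaperone list's single fall, at -1.03 (adjusted p = 0.000131). On day 7 *Sdf2l1* at 0.28 and *Manf* at 0.29 did not pass against sham. The list then held 12 risen and 2 fallen genes with a median of 0.30, against 30.9% and 28.4% of all genes. Its summed level was 3502 CPM in day 7 replicate 1 and 2217 to 2437 CPM in the other day 7 hearts, and without that heart 5 genes fell. Without sham replicate 1, 1 gene fell. Library totals alone gave 18 risen and 1 fallen, and limma on TPM 22 and 0. *Pdia5* at 1.87 (adjusted p = 1.26e-05) and *Txndc5* at 1.24 (adjusted p = 3.23e-06), both disulfide isomerases, led it, and *Cdnf* at -1.06 and *Canx*, the lectin chaperone calnexin, at -0.31 (adjusted p = 0.0155) were lower. *Cdnf* was at -0.28 and -0.30 in limma on TPM, not called, and *Canx* was not called with library totals alone (0.10) or without sham replicate 1 and was called higher in limma on TPM, at 0.38 with each pseudocount. Between day 7 and day 1, 15 of the 25 were lower and 5 higher, against 22.8% and 24.2% of all genes. In limma on TPM with a pseudocount of 1 the counts were 8 and 7. The count of 5 was 3 without day 1 replicate 3 or day 7 replicate 1.

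Of 32 genes of ER degradation, translocation and trafficking, many of them XBP1 targets, 25 rose and 1 fell in day 1 AMI. The median was 0.46, and 22% of all genes rose and 19.9% fell. *Derl3*, an ER degradation factor also found in plasma cells, led with a log2 FC of 2.85 ± 0.469 (adjusted p = 0.000363), from a mean of 0.193 CPM in sham to 1.39 CPM, followed by *Spcs3*, a signal peptidase subunit, at 1.41 ± 0.119 (adjusted p = 6.05e-06). *Herpud1*, which encodes an ER membrane protein of the degradation complex, fell by 0.64 in day 1 AMI (adjusted p = 0.0083) and by 1.30 in day 7 AMI (adjusted p = 1.85e-05). The day 1 fall, the list's single one, was lost with library totals alone (-0.36) and in limma on TPM (-0.33 with each pseudocount). On day 7, 16 genes of this list rose and 4 fell, with a median of 0.29, against 30.9% and 28.4% of all genes. With library totals alone or in limma on TPM, 27 rose and 1 fell. The falls numbered 2 without sham replicate 1, sham replicate 3 or day 7 replicate 4. *Kdelr3*, a receptor that returns proteins to the ER, then had the largest rise, at 2.52 ± 0.179 (adjusted p = 9.43e-08), and *Edem1*, which marks misfolded glycoproteins, rose by 1.41 (adjusted p = 2.78e-06). *Dnajb9*, a BiP cochaperone, was at -0.38 (adjusted p = 0.0334), a call lost without sham replicate 1, 3 or 4 or day 7 replicate 1 or 4 and at 0.02 with library totals alone. Between day 7 and day 1, 16 genes were lower and 2 higher, against 22.8% and 24.2% of all genes. In limma on TPM with a pseudocount of 1 the counts were 8 and 7.

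Of 12 further ER stress sensors and related factors, 9 were tested. On day 1, 5 rose and 1 fell (median 0.40), against 22% and 19.9% of all genes. On day 7, 5 rose and 2 fell (median 0.29), against 30.9% and 28.4% of all genes. With library totals alone 8 rose and 1 fell on day 1 and 7 and 1 on day 7, and limma on TPM gave 8 and 1, then 8 and 0. *Creb3l1*, an ER-bound factor known for collagen secretion, rose by 1.25 ± 0.216 (adjusted p = 0.000487) and 1.93 ± 0.216 (adjusted p = 4.1e-06), and its relative *Creb3l2* rose by 1.09 on day 7 (adjusted p = 5.98e-07). *Atf6b*, the paralog of *Atf6*, rose by 0.67 on day 1 (adjusted p = 0.000277). *Map3k5*, the stress kinase ASK1, was at -0.64 and -0.63 (adjusted p = 0.000127 and 3.92e-05), and *Rtcb*, the ligase that joins spliced *Xbp1*, was at -0.26 on day 7 (adjusted p = 0.00903). *Map3k5* on day 7 was not called in limma on TPM (-0.05 with each pseudocount), and *Rtcb* was not called with library totals alone (0.14) and was called higher in limma on TPM (0.28 and 0.29).

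Of 16 eIF2 kinases, phosphatases and eIF2B subunits other than the 10 genes, 7 rose on day 1 and 9 did not pass (median 0.14). Among all genes 22% rose and 19.9% fell. In this list 12 rose with library totals alone and 15 in limma on TPM. *Dnajc3*, the PERK inhibitor p58IPK, was at 0.61 (adjusted p = 0.00278) and *Eif2ak2*, the RNA-activated kinase PKR, at 0.47 (adjusted p = 0.00377). On day 7, 3 rose and 7 fell (median -0.19), against 30.9% and 28.4% of all genes. The split turned to 9 risen and 1 fallen with library totals alone (median 0.21) and 13 and 1 in limma on TPM. The falls numbered 4 without sham replicate 4, without day 7 replicate 4 or with no filter on low counts. *Eif2ak2* at 1.17 (adjusted p = 9.14e-07) and *Eif2ak4*, the amino acid sensor GCN2, at 0.66 (adjusted p = 3.58e-05) led the risen genes. *Eif2b4* at -0.76 (adjusted p = 6.15e-07) and *Eif2b5* at -0.56 (adjusted p = 3.44e-06), subunits of the exchange factor that phosphorylated eIF2 blocks, were the lowest, and *Eif2b5* was not called with library totals alone (-0.17) or in limma on TPM (0.00485 and 0.00505). With *Eif2ak3*, 3 of the 4 eIF2α kinases were thus above sham on day 7, while *Eif2ak1*, the heme-regulated kinase, was at -0.25 (adjusted p = 0.0155), not called without day 7 replicate 4 or with library totals alone (0.15) and called higher in limma on TPM (0.28 and 0.30).

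Of 42 ATF4 target genes, 40 were tested. On day 1, 24 rose and 4 fell, with a median of 0.29, against 22% and 19.9% of all genes, and in limma on TPM 1 fell. *Gdf15*, a stress hormone gene, rose from a mean of 0.621 CPM in sham to 14.4 CPM (log2 FC 4.52 ± 0.526, adjusted p = 4.17e-05), and *Slc7a11*, the cystine importer, rose from a sham mean of 0.0939 CPM, which was under the floor of a library, to 1.00 CPM (adjusted p = 0.000372). *Vldlr*, a lipoprotein receptor, at -1.47 (adjusted p = 8e-06) and *Cth*, an enzyme of cysteine synthesis, at -1.11 (adjusted p = 0.0112) were the lowest, and *Cth* was not called on day 1 in limma on TPM (-0.43 and -0.70). On day 7, 15 rose and 12 fell, against 30.9% and 28.4% of all genes, with a median of 0.03 that was close to that of all genes. The split was 25 and 4 with library totals alone (median 0.42) and 28 and 3 in limma on TPM. *Gdf15* remained above sham at 4.15 (adjusted p = 1.29e-05), and *Slc1a4*, a neutral amino acid transporter, rose by 2.47 ± 0.245 (adjusted p = 1.46e-06). *Cth* at -2.22 (adjusted p = 6.41e-05) and *Gpt2*, a mitochondrial aminotransferase, at -1.35 (adjusted p = 1.28e-05) were the lowest. Between day 7 and day 1, 20 of the 40 were lower and 6 higher, against 22.8% and 24.2% of all genes. Limma on TPM gave 7 lower, and 3 were higher without day 1 replicate 2.

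Of 6 CHOP targets 5 were tested. On day 1, 3 rose and 1 fell, against 22% and 19.9% of all genes. On day 7, 4 rose and 0 fell, against 30.9% and 28.4% of all genes. *Pmaip1*, the death gene NOXA, rose by 2.35 ± 0.512 (adjusted p = 0.00244) and 2.46 ± 0.511 (adjusted p = 0.000837), and *Tnfrsf10b*, a death receptor, rose by 1.27 (adjusted p = 0.000467) and 1.47 (adjusted p = 4.73e-05). *Bcl2l11*, the death gene BIM, was the single fall, at -0.41 on day 1 (adjusted p = 0.0117), and was not called with library totals alone (-0.14) or in limma on TPM (-0.02 and -0.03). Of 9 genes of mitochondrial proteostasis, 4 fell on day 1 (median -0.24) and 8 on day 7 (median -0.90), against 19.9% and 28.4% of all genes. With library totals alone 2 fell on day 1 (median 0.04), and 8 fell and 1 rose on day 7 (median -0.50). In limma on TPM 2 fell on day 1 (median 0.08), and 6 fell and 1 rose on day 7 (median -0.34). Of the day 7 falls 2 were DEGs in the fit reported, and 0 under each of these 3 scalings. *Clpx*, a subunit of the matrix protease, fell by 0.67 (adjusted p = 0.000939) and 1.12 (adjusted p = 4.77e-06), its partner *Clpp* fell by 1.02 on day 7 (adjusted p = 2.56e-07), and *0610009O20Rik*, the DELE1 gene that links mitochondrial stress to eIF2α, fell by 0.79 on day 1 (adjusted p = 0.000122). Cardiomyocyte markers fell in 9 of 11 on day 1 and in 10 of 11 on day 7, and their part in these falls was not tested.

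**Figure D4:**
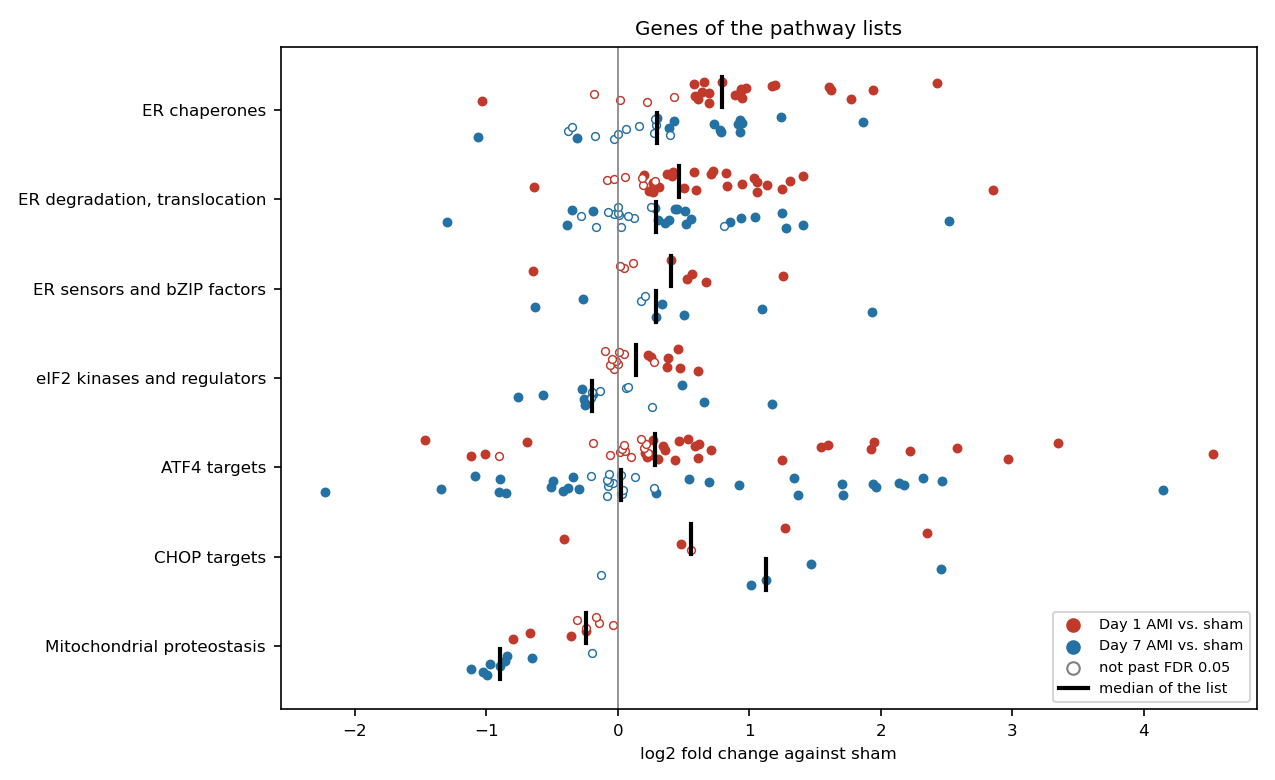
Log2 FC against sham (horizontal axis) of every tested gene of the 7 pathway lists in day 1 AMI (red) and day 7 AMI (blue), with filled points where the FDR was below 0.05 and a black bar at the list median. The chaperone median was 0.79 on day 1 and 0.30 on day 7, and the mitochondrial list lay to the left, at -0.24 and -0.90.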

How the data were processed

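Whole-heart RNA of 12 libraries was assigned to its 3 groups by label. Per the labels and the study's methods, the authors made 150-bp reads with CASAVA 1.8, aligned them with STAR 2.4.0j to mm10 (GRCm38) with gene quantification by RSEM. Deposited were unnormalized counts per gene (whole numbers) and the TPM values the authors obtained. The tool behind the counts, strand and treatment of multi-mapped reads are not given in the sources used here.

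Differential expression used edgeR 4.0.16 in R 4.3.3 on the counts (filterByExpr, TMM, one quasi-likelihood fit of 3 groups, FDR over 15306 genes), and SE were those implied by the F statistic. Log2 CPM for correlations used a prior count of 2. Scripts were tested on simulated data. The 10 genes and all lists were chosen with earlier results of these data known. Named from each list were the largest 2 rises and 2 falls per time against sham, past the FDR and at 1 CPM or more in the higher group, and for each of the 10 genes the 2 most correlated genes. *Hspa5* and *Eif2ak1* were chosen after their values were seen. Alternatives were DESeq2 1.42.0, RLE size factors, library totals alone, no mitochondrial genes, no filter, only the groups compared, a replicate block, limma 3.58.1 on log2(TPM + 1) and log2(TPM + 0.1) of genes at 1 TPM or more in 4 libraries, and each heart left out. Gene positions were from GENCODE (GRCm38). Figures used matplotlib 3.10.9 in Python 3.11.15.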

Additional observations from a re-analysis of the deposited data

Results flagged for a closer look

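The change over sham differed between the 2 times after AMI for 4 of the 10 genes, by the edgeR test of day 7 AMI against day 1 AMI, which is the test of that difference because both share the sham hearts. It was -0.52 on the log2 scale for *Atf4* (adjusted p = 0.0158), -0.81 for *Xbp1* (adjusted p = 4.82e-05) and -0.74 for *Ppp1r15a* (adjusted p = 0.00909), with the lower values on day 7. For *Eif2ak3* it was 0.48 (adjusted p = 0.000605), with the higher value on day 7. Of all tested genes, 24.2% were higher and 22.8% lower on day 7 than on day 1. The *Atf4* call was lost without day 1 replicate 2, with library totals alone and in limma on TPM. The *Ppp1r15a* call was lost in limma on TPM. In *Xbp1* and *Eif2ak3* all 4 hearts of one time were above all 4 of the other, and the share of all genes that did so was not counted. No heart stood apart from the other 3 of its group by Dixon's test in any of the 30 groups of values, a test that by chance marks about 1 group in 20.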

How the results depend on the processing

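The replicate numbers did not pair the hearts, since same-numbered hearts of different groups deviated together with r from -0.244 to 0.229, and a fit with a replicate block gave 6 genes risen in day 1 AMI, 2 risen and 1 fallen in day 7 AMI, as without it. The rises of *Asns*, *Xbp1*, *Atf4* and *Eif2ak3* on day 1 and of *Asns* and *Eif2ak3* on day 7 were called in all 12 fits with a heart left out and in the other 9 alternatives.

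Scaling without composition factors mattered most on day 7. Genes risen over sham numbered 2 in the fit reported, 6 with library totals alone and 8 in limma with either pseudocount. DEGs numbered 2 in place of 1, and fallen genes 0 in place of 1, under all 3. Among all tested genes on day 7, the fit reported called 4728 of 15306 higher and 4353 lower, and library totals alone 8237 and 1659. Limma on log2(TPM + 1) called 8606 of 13716 higher and 993 lower, and on log2(TPM + 0.1) 8611 and 986. The larger counts of risen genes thus came with more risen genes in the whole series. These scalings moved the all-gene median on day 7 from 0.03 to between 0.43 and 0.55, and *Ern1*, *Atf4*, *Ddit3* and *Xbp1* were called above sham on day 7 in all 3. They turned *Atf6* on day 7 against sham to 0.16, 0.33 and 0.34, and *Ppp1r15a* to 0.30, 0.37 and 0.39, and limma turned *Trib3* between the AMI groups to 0.10 and 0.15. Limma called 1 gene lower on day 7 than on day 1, and a fit of those groups alone called 6, against 3. Among all tested genes, limma on log2(TPM + 1) called 1273 of 13716 lower and limma on log2(TPM + 0.1) called 1229. Those groups alone gave 3701 of 15148 lower, against 3496 of 15306 in the fit reported. In the fits with composition factors *Ern1* moved around 0, to -0.00130 and -0.00105 on day 7 against sham by DESeq2 and RLE factors, and between the AMI groups to -0.0106, -0.00670, -0.00408 and -0.00107 by DESeq2, RLE factors, no filter and those groups alone. Where another scaling changed a call, the all-gene shift it made moved with it, and no other cause was tested.

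With single hearts left out, the genes risen on day 1 numbered 4 to 6, DEGs up on day 1 numbered 1 to 2, fallen genes on day 7 numbered 0 to 2, and fallen DEGs on day 7 numbered 0 to 1. The count of DEGs up on day 1 was 1 without sham replicate 4 or day 1 replicate 2. The count of fallen genes on day 7 was 0 without sham replicate 2 or day 7 replicate 2 and 2 without sham replicate 4, and 1 of them was a DEG without sham replicate 1 or day 7 replicate 3. The log2 FC ranged over -0.0805 to 0.182 for *Atf6* and -0.0413 to 0.0593 for *Ern1* on day 1, over -0.0327 to 0.0814 for *Ern1* and -0.169 to 0.0389 for *Ppp1r15a* on day 7, and over -0.492 to 0.0252 for *Trib3* and -0.0404 to 0.0722 for *Ern1* between the AMI groups.

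Of 1764 recomputed list counts, 155 moved by more than 1.5 times. *Asns*, *Chac1* and *Trib3* rested on 21 to 311 counts a library, which limits the precision of their values.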
